A study of Mus musculus with 14 samples.

Results

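The transcriptome of the BAPN-fed mouse ascending aorta was compared with and without SB273005. BAPN (β-aminopropionitrile) inhibits the lysyl oxidases, the enzymes that cross-link collagen and elastin, and feeding it to mice is a model of thoracic aortic aneurysm. SB273005 is a small-molecule antagonist of αV integrins, and the labels give neither its dose nor its route. The comparison takes 8 of the 14 libraries of the study, 4 of BAPN and 4 of BAPN with SB273005, and 12824 of the 32289 genes, those with an FPKM (fragments per unit of transcript length and of sequencing depth) of 1 or more in at least 3 of the 8. All were bulk RNA libraries of ascending aorta from C57BL/6 mice taken at 6 weeks of modelling. The other libraries were 3 of PBS and 3 of BAPN with Cilengitide, a cyclic RGD peptide that also binds αV integrins, and they entered the fit and are given as levels. The labels state neither sex nor age, nor whether each library came from a separate animal, and the p-values thus reflect the spread among these libraries, which may be technical. At the edge of the filter, 340 genes reached the level in exactly 3 of the 8 libraries, 447 did so in exactly 2 and were left out, and 10967 did so in all 8.

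Integrins are pairs of an α and a β chain that tie the cytoskeleton to the matrix. The αV chain pairs with β1, β3, β5, β6 or β8, binds RGD-bearing ligands such as fibronectin, osteopontin and vitronectin, and releases TGF-β from its latent complex. In the aortic media, smooth muscle cells carry the load through contractile filaments that end in focal adhesions, and the contractile genes are driven by SRF with its partners myocardin and the MRTFs through CArG elements in their promoters.

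The libraries fell into sets that the labels do not give, and single libraries stood apart. Total counts were 49027885 to 72584877 per library. H2-Ea encodes a class II histocompatibility chain that is silent in C57BL/6 mice. It had 89 to 130 counts in each BAPN library and 116 in SB273005 replicate 4, but 0 in SB273005 replicates 1 to 3 and in the PBS libraries. Uromodulin, a protein of the renal tubule, is encoded by Umod, whose level was 19.8 to 25.8 FPKM in BAPN and 23.0 in SB273005 replicate 4, against 8.94 to 11.6 in SB273005 replicates 1 to 3. Umod is used here to mark the sets and does not stand for kidney markers in general. The summed FPKM of 11 kidney markers was 214 to 286 in BAPN and 346, 299, 377 and 260 in SB273005 replicates 1 to 4. The median log2 difference of the 8 tested was −0.16. SB273005 replicate 4 is thus the one library of its group that shares the BAPN pattern of H2-Ea and Umod. In the other 3 the set and the treatment cannot be told apart. Values from SB273005 replicate 4 alone against BAPN, in a fit that takes its spread from the other libraries, therefore stand beside the results. SB273005 replicate 2 had 17.9% of its counts in mitochondrially encoded genes, against 5.32% to 10.2% in the rest of its group and 4.26% to 8.49% in BAPN, and BAPN replicate 1 was high in many matrix genes. Values without each of these libraries are also given. BAPN replicate 1 was picked from these same values, and where it lay nearest to SB273005, leaving it out had to widen the difference. A gene that passed only without it is thus not called changed.

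Of the 12824 genes, 13 passed at an adjusted p under 0.05 (0.101%; edgeR quasi-likelihood test, Benjamini-Hochberg adjustment over all 12824): 5 were higher with SB273005 (0.0390%) and 8 were lower (0.0624%). At an unadjusted p under 0.05 there were 2093 genes (16.3%). The genes that fell included an inhibitor of the actin-regulating kinase PAK4, a voltage-gated potassium channel and the kinase that slows translation elongation. Those that rose included the myo-inositol transporter gene and a FOXO target. The bradykinin B2 receptor and a cardiac myosin gene also passed, but they met the filter only through the group where they were high. They are counted but not read further. In each of the 13 the 4 SB273005 values and the 4 BAPN values did not overlap.

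Inka2, the gene of a PAK4 inhibitor (ENSMUSG00000048458, chromosome 3, 105704599 to 105720842, mm10), had the smallest p. It was at 6.52, 7.88, 7.82 and 5.54 FPKM in BAPN replicates 1 to 4 and at 2.61, 2.1, 2.92 and 3.26 in SB273005 replicates 1 to 4. Every SB273005 library was below the lowest BAPN library, SB273005 replicate 4 included. The log2 difference was −1.30 ± 0.16 (SE; edgeR adjusted p = 0.0219). PBS libraries held 9.04 to 11.1 FPKM and Cilengitide libraries 3.96 to 5.46.

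Kcnh2, which encodes a voltage-gated potassium channel best known for repolarising cardiac muscle (ENSMUSG00000038319, chromosome 5, 24319589 to 24351604), was at 17.6, 20.7, 21.5 and 19.7 FPKM in BAPN and 9.47, 10.3, 14 and 11.3 with SB273005. The log2 difference was −0.77 ± 0.11 (edgeR adjusted p = 0.0444), or −0.76 in SB273005 replicate 4 alone. Igsf9, an immunoglobulin-family adhesion molecule (ENSMUSG00000037995, chromosome 1, 172481788 to 172498878), was at 6.05, 5.24, 5.29 and 4.86 FPKM in BAPN and 2.75, 2.23, 3.25 and 2.18 with SB273005 (log2 −0.99 ± 0.14, edgeR adjusted p = 0.0444). For both genes the highest SB273005 library, replicate 3, stayed below the lowest BAPN library. In PBS the ranges were 26.1 to 28.4 for Kcnh2 and 7.33 to 9.78 for Igsf9, and in Cilengitide 13 to 14.5 and 2.80 to 3.83.

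Bdkrb2, the bradykinin B2 receptor (ENSMUSG00000021070, chromosome 12, 105563226 to 105595237), was at 1.68, 3.50, 2.22 and 2.70 FPKM in BAPN and 0.994, 0.713, 0.887 and 0.964 with SB273005. It met the filter only through the BAPN libraries, where it was high. Its log2 difference was −1.45 ± 0.23 (edgeR adjusted p = 0.0486). Every SB273005 value lay under the filter level of 1 FPKM, so the size of this difference is not ranked against other genes. Eef2k, the kinase of elongation factor 2 (ENSMUSG00000035064, chromosome 7, 120842831 to 120907450), was at 14.9, 20.8, 20.2 and 19.3 FPKM in BAPN and 10.3, 8.57, 12.5 and 8.18 with SB273005, a log2 difference of −0.88 ± 0.14 (edgeR adjusted p = 0.0486). For Eef2k PBS stood near BAPN, at 16.7 to 18.8 FPKM. A short gene model on the same strand lies within Eef2k, so reads between them cannot be told apart.

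Smim5, a small membrane protein gene (ENSMUSG00000048442, chromosome 11, 115899966 to 115906269), was at 11.8, 10.6, 15.4 and 9.40 FPKM in BAPN and 5.13, 5.27, 5.22 and 3.40 with SB273005 (log2 −1.26 ± 0.21, edgeR adjusted p = 0.0486). Fam118a was at 6.52 to 7.20 FPKM in BAPN and 3.23 to 4.38 with SB273005 (log2 −0.77 ± 0.13), and Abcb9, a lysosomal peptide transporter, at 3.77 to 4.32 and 2.42 to 2.84 (log2 −0.58 ± 0.09; edgeR adjusted p = 0.0486 for both). Smim5 was lowest in SB273005 replicate 4, which alone gave −1.74, and Abcb9 gave −0.59 there. In PBS these 3 genes were at 15.9 to 24.4, 7.94 to 9.50 and 5.32 to 6.82 FPKM.

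Of the genes that rose, Slc5a3, the sodium and myo-inositol cotransporter used in osmotic adjustment (ENSMUSG00000089774, chromosome 16, 92058322 to 92087473), was at 2.46, 1.83, 1.86 and 1.82 FPKM in BAPN and 3.02, 3.44, 3.92 and 5.07 with SB273005. SB273005 replicate 4 was the highest of the 14 libraries, and BAPN replicate 1 the highest of its group. The log2 difference was 1.01 ± 0.15 (edgeR adjusted p = 0.0444). It was 1.40 in SB273005 replicate 4 alone, which is part of the main comparison and thus no separate support. Mrps6, a mitochondrial ribosomal protein gene at 13.6 FPKM in BAPN and 17.2 with SB273005, overlaps Slc5a3 on the same strand, so the split of reads between them is uncertain.

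Stk32b, a serine/threonine kinase gene (ENSMUSG00000029123, chromosome 5, 37446825 to 37717171), was at 4.54, 3.38, 4.09 and 4.35 FPKM in BAPN and 8.35, 9.53, 7.28 and 6.21 with SB273005 (log2 1.00 ± 0.16), and Hhipl1, related to the hedgehog-binding protein HHIP (ENSMUSG00000021260, chromosome 12, 108306270 to 108330869), at 2.98 to 3.49 and 4.60 to 5.82 (log2 0.66 ± 0.11; edgeR adjusted p = 0.0486 for both). Cilengitide libraries held 6.26 to 7.67 FPKM of Stk32b and 3.87 to 4.45 of Hhipl1, and PBS libraries 1.79 to 2.47 and 2.79 to 2.84. Stk32b was thus above every PBS library in all 8.

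Depp1, a FOXO target linked to autophagy (ENSMUSG00000048489, chromosome 6, 116650609 to 116652794), was at 2.81, 2.62, 2.66 and 6.97 FPKM in BAPN and 13.6, 22.5, 32.4 and 11.4 with SB273005. BAPN replicate 4 stood above its group, and the lowest SB273005 library was SB273005 replicate 4. The log2 difference was 2.46 ± 0.42 (edgeR adjusted p = 0.0486) and 1.65 in SB273005 replicate 4 alone. The PBS libraries, which share the H2-Ea pattern of SB273005 replicates 1 to 3, held 1.99 to 4.23 FPKM. Depp1 overlaps Rassf4 on the other strand, and without a stated strand setting reads of the pair cannot be told apart; Rassf4 was at 2.45 FPKM in BAPN and 2.61 with SB273005.

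Myh7, a cardiac myosin heavy chain (ENSMUSG00000053093, chromosome 14, 54970684 to 54994626), had a log2 difference of 5.36 ± 0.89 (edgeR adjusted p = 0.0486). It met the filter only through SB273005 replicates 1 to 3, where it was high, so its size is not ranked against other genes. It was at 0.0329, 0.0820, 0.110 and 0.260 FPKM in BAPN and 5.96, 5.31, 7.54 and 0.261 with SB273005. SB273005 replicate 4 stood at the top of the BAPN range, and PBS libraries were at 4.51 to 5.08, so its levels followed the library sets, which cannot be told apart from the treatment in SB273005 replicates 1 to 3. Septin4, a filament-forming GTPase gene that came next in p among rises without overlap, was at 1.24 to 1.99 FPKM in BAPN and 2.15 to 3.21 with SB273005, short of the threshold (log2 0.93 ± 0.17, edgeR adjusted p = 0.0779).

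**Figure D1:**
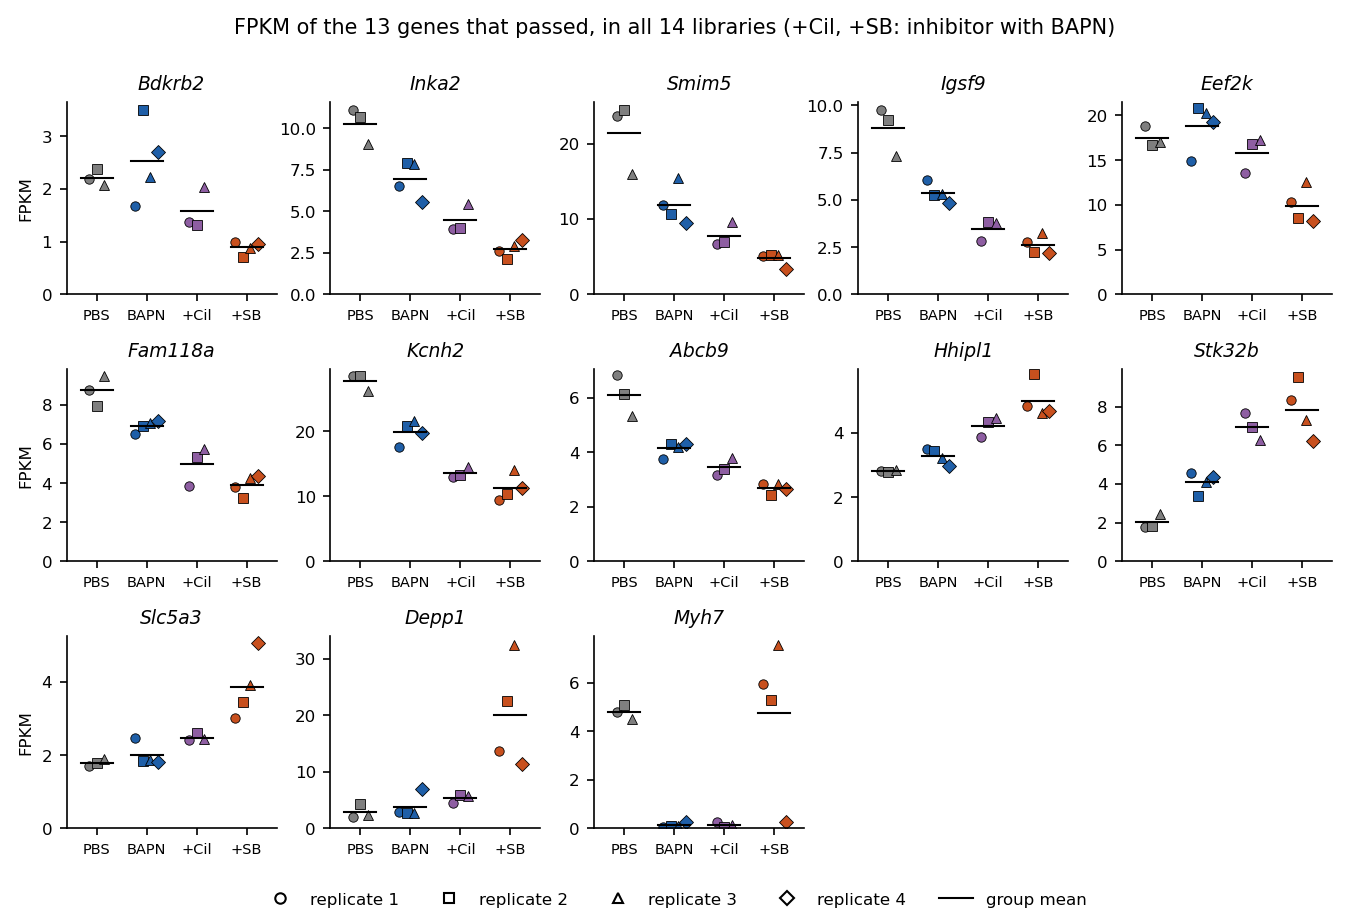
FPKM of the 13 genes that passed in each of the 14 libraries (points, by replicate) with the group mean (line), 1 panel a gene on its own linear axis from 0. The 4 SB273005 points lie apart from the 4 BAPN points in each panel, narrowly so for Myh7, where SB273005 replicate 4 is at 0.261 FPKM and the highest BAPN library at 0.260.

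The count of 13 rests on the estimate of spread shared by all 14 libraries. A fit on the 8 libraries alone called 0 genes in edgeR (1575 at an unadjusted p under 0.05), and DESeq2 on all 14 called 407, 216 higher and 191 lower, the 13 among them. Leaving out 1 library gave 62 genes without BAPN replicate 1, 118 without SB273005 replicate 4, 19 without Cilengitide replicate 1, and 0 to 3 without any other; of the 62, 41 were higher and 12 were among the 13. Without SB273005 replicate 2 there were 2 genes, Inka2 being the one shared with the 13 (edgeR adjusted p = 0.0462). SB273005 replicate 4 alone is a single library that also belongs to the main comparison, so genes passing there are not read as support.

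**Figure D2:**
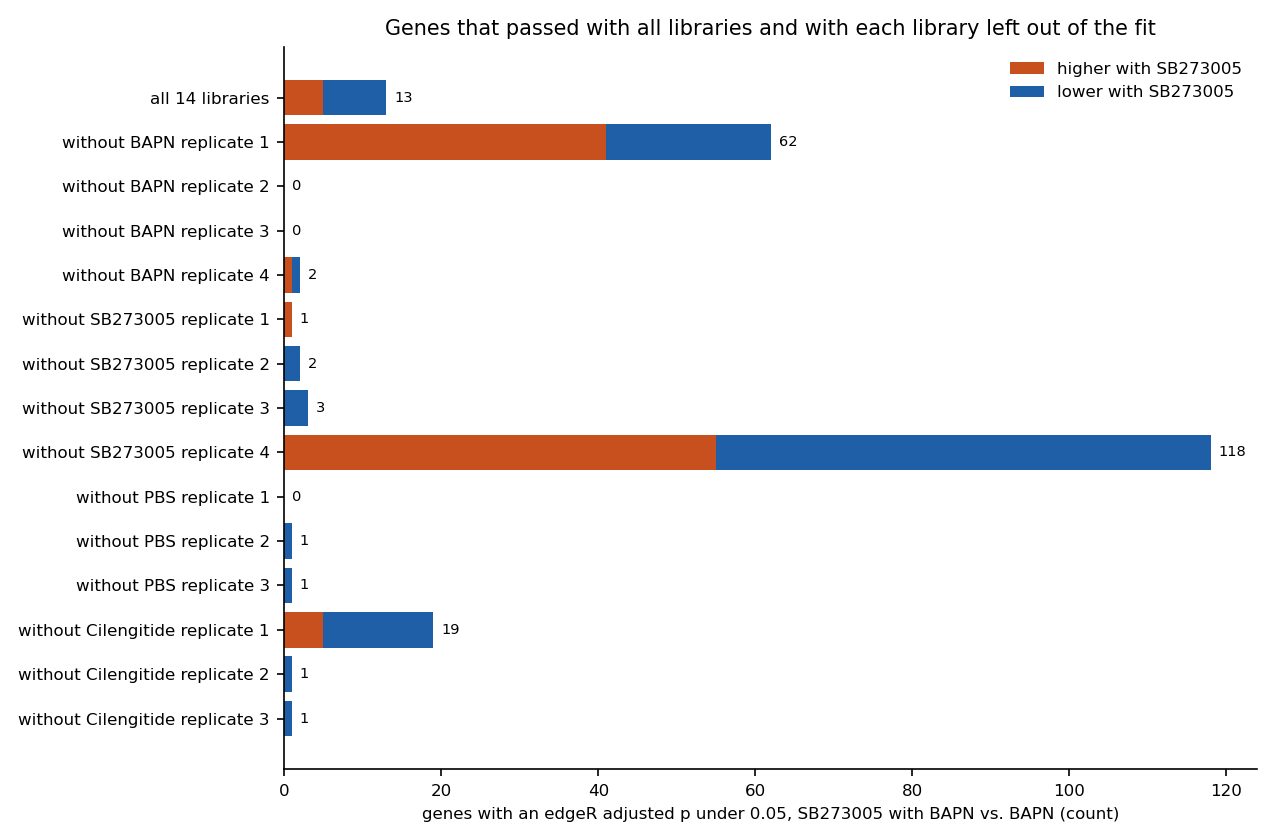
Number of genes past an edgeR adjusted p of 0.05 in SB273005 with BAPN vs. BAPN, stacked by direction, with all 14 libraries (13 genes) and with each library left out. The bars reach 62 without BAPN replicate 1 and 118 without SB273005 replicate 4, and most others are at 0 to 3.

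In FPKM, 1019 genes (7.95%) had groups of 4 that did not overlap, 197 higher (1.54%) and 822 lower (6.41%). On CPM scaled by TMM the split was 394 (3.07%) and 490 (3.82%), so the share of higher genes among them was 19.3% in FPKM and 44.6% in scaled CPM. Without SB273005 replicate 2 the FPKM shares were 3.50% higher and 8.54% lower, and without BAPN replicate 1 they were 5.61% and 9.18%. The counts of gene list members below are read against these shares, and the list medians against a median log2 difference of 0.02 over all genes tested. Rescaling FPKM to a common total (TPM) moved that median to −0.15, so values near 0 depend on the scaling. Overlap below is judged in FPKM unless scaled CPM is named, and some genes differ between them. Dll4, Jag2, Ptk2b, Eng, Loxl3, Mgp and Ptpn14 overlapped in FPKM but were higher without overlap on scaled CPM. Acta2, Prdm6, Cytl1 and Prkg1 were lower without overlap in FPKM but overlapped on scaled CPM. Of all genes tested, 53.2% were above 0 and 46.8% below. Of the members of the 54 lists described, Myh7 was the only one that passed in the fit of all 14 libraries, so the other values below are not called changes.

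SB273005 acts on αV integrins, whose genes are given first. Itgav, the αV chain, was at 10.8, 9.73, 9.69 and 9.58 FPKM in BAPN and 9.82, 6.33, 7.94 and 10.1 with SB273005. The groups overlapped and SB273005 replicate 2 was lowest. The log2 difference was −0.17, with a 95% interval from −0.44 to 0.11 (edgeR adjusted p = 0.521).

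Itgb3, the β3 chain, was at 16.6, 15.6, 13.6 and 15.5 FPKM in BAPN and 13.1, 5.44, 9.08 and 10.9 with SB273005, without overlap. Its log2 difference of −0.62 ± 0.19 did not pass (edgeR adjusted p = 0.188), and was −0.44 both without SB273005 replicate 2 and in SB273005 replicate 4 alone. PBS libraries held 17.5 to 22.6 FPKM and Cilengitide libraries 14.3 to 14.7. Itgb5, the β5 chain, was at 218 to 325 FPKM in BAPN and 194 to 367 with SB273005, and Itgb1 at 310 to 392 and 122 to 352; both overlapped, with log2 differences of 0.23 ± 0.18 and −0.40 ± 0.25 (edgeR adjusted p = 0.538 and 0.421). Per length, then, β1 and β5 transcripts were far above αV and β3 in every library. Itgb6 and Itgb8 were under the filter.

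Among 10 tested α chains that bind matrix, 6 were below 0 and the median was −0.27, which ran from −0.41 without SB273005 replicate 4 to −0.09 without SB273005 replicate 2. Itga11, a collagen-binding chain, was at 8.21, 2.00, 2.52 and 1.80 FPKM in BAPN and 20.7, 10.4, 8.67 and 10.6 with SB273005. Every SB273005 library was above every BAPN library, but BAPN replicate 1 came close to the lowest of them. The log2 difference was 1.86 ± 0.52 (edgeR adjusted p = 0.163), and without BAPN replicate 1 it was 2.62 and passed (edgeR adjusted p = 0.0345). Itga3, a laminin-binding chain, was at 34.3 to 41.6 FPKM in BAPN and 11.3 to 29.2 with SB273005, without overlap (log2 −0.76 ± 0.21, edgeR adjusted p = 0.163), and Itga5, the fibronectin receptor chain, at 137 to 262 and 56.1 to 160 (log2 −0.80 ± 0.28, edgeR adjusted p = 0.217). Itga6, another laminin-binding chain, was at 4.96, 6.77 and 4.02 FPKM in SB273005 replicates 1 to 3 and 1.13 in replicate 4, with BAPN at 1.19 to 2.82, so its log2 difference was 1.15 with all libraries and −0.75 in replicate 4 alone.

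**Figure D3:**
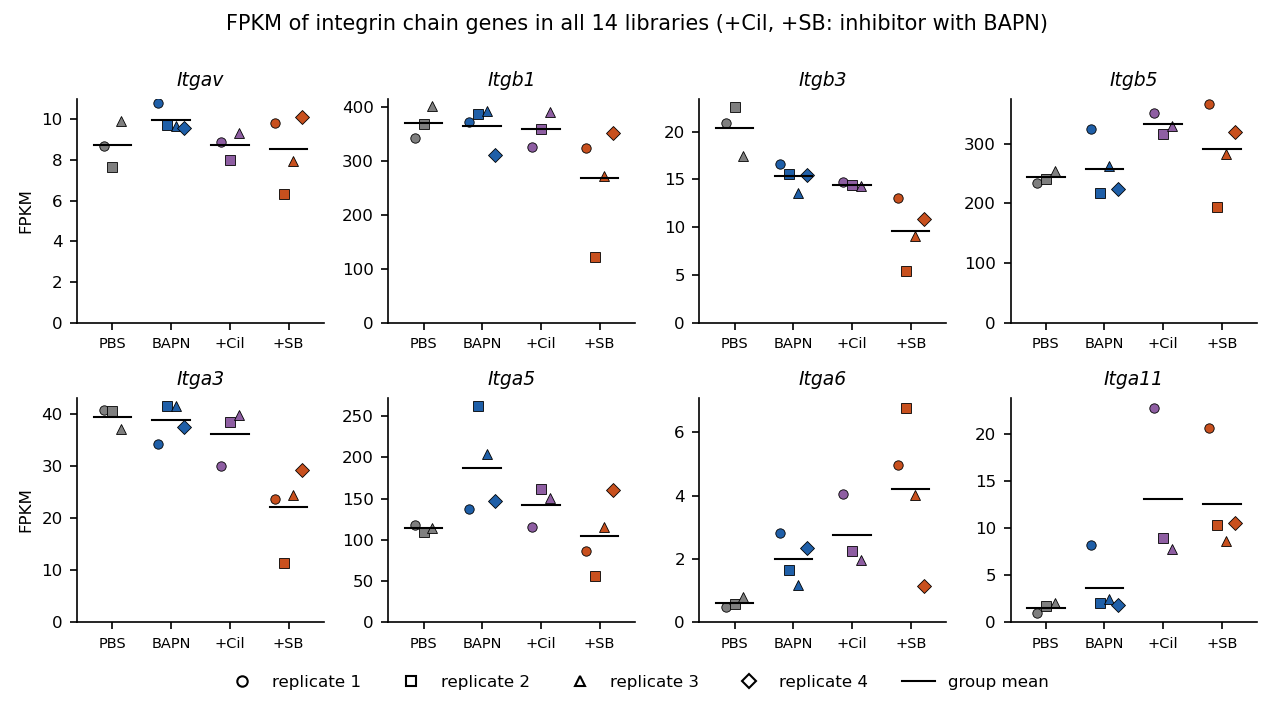
FPKM of 8 integrin chain genes in each of the 14 libraries (points, by replicate) with the group mean (line), on linear axes from 0. Itgb3 and Itga3 are lower and Itga11 higher in each SB273005 library than in any BAPN library, while Itgav overlaps and SB273005 replicate 2 is lowest for Itgav, Itgb1, Itgb3, Itgb5, Itga3 and Itga5.

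The integrin ligands and matricellular genes had a median of 0.50 over 21 tested, with 13 above 0, which ran from 0.15 without SB273005 replicate 1 to 0.73 without SB273005 replicate 2. Comp, a cartilage and tendon matrix protein, was at 41.7, 29.1, 34.6 and 27.2 FPKM in BAPN and 245, 48.2, 104 and 52.1 with SB273005 (log2 1.80 ± 0.49, edgeR adjusted p = 0.155). The groups did not overlap, and SB273005 replicate 1 was the highest. Fn1, fibronectin, was at 193 to 326 and 188 to 668 FPKM (log2 0.63 ± 0.36), Spp1, osteopontin, at 38.3 to 121 and 33.0 to 183 (0.93 ± 0.57) and Thbs1, thrombospondin 1, at 20.8 to 143 and 41.2 to 228 (0.83 ± 0.64). All 3 overlapped, and their edgeR adjusted p values were 0.396, 0.421 and 0.523. Ccn5, a growth-restraining CCN family member, was at 114 to 293 and 241 to 450 FPKM (0.79 ± 0.25), while Tnxb, tenascin X, at 16.2 to 28.7 and 10.7 to 16.7 (−0.67 ± 0.18) and Thbs3, at 13.7 to 19.1 and 10.3 to 14 (−0.31 ± 0.11), leaned the other way (edgeR adjusted p = 0.196, 0.149 and 0.223).

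Among 23 focal adhesion genes, 17 were below 0 and 3 had groups that did not overlap, all lower (13%). The median of −0.27 became −0.10 without SB273005 replicate 2 and −0.03 in SB273005 replicate 4 alone. Lpp, a zyxin-family scaffold rich in smooth muscle, was at 11.5, 15.8, 18.2 and 14.1 FPKM in BAPN and 7.36, 3.46, 8.98 and 10.8 with SB273005 (log2 −0.92 ± 0.26, edgeR adjusted p = 0.169), and Vasp, an actin elongation factor, at 54.9 to 64.1 and 29.3 to 50.6 (−0.40 ± 0.13, edgeR adjusted p = 0.205). Both were lower in each SB273005 library. The adhesion kinases did not share a direction. Ptk2b (PYK2) was at 2.45 to 5.14 and 5.01 to 9.35 FPKM (1.14 ± 0.31) and Ptk2 (FAK) at 3.75 to 4.14 and 3.76 to 5.97 (0.35 ± 0.12; edgeR adjusted p = 0.155 and 0.206). Ilk and Src, named after their values were seen, had log2 differences of −0.51 ± 0.18 and −0.32 ± 0.15 (edgeR adjusted p = 0.212 and 0.306), Ilk without overlap.

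Contractile smooth muscle genes were lower on balance with SB273005: 21 of 22 were below 0, with a median of −0.77, and 7 of 22 (31.8%) had lower groups without overlap, against 6.41% of all genes. On scaled CPM 6 of the 22 were lower without overlap, against 3.82% of all genes. None of the 22 passed in edgeR at the adjusted threshold. The median was −0.85 without BAPN replicate 1, −0.51 without SB273005 replicate 2 and −0.27 in SB273005 replicate 4 alone. The mean log2 CPM of the list, relative to the BAPN mean, was −0.26, 0.18, 0.29 and −0.21 in BAPN replicates 1 to 4 and −0.81, −1.96, −0.38 and −0.25 in SB273005 replicates 1 to 4. SB273005 replicate 2 was by far the lowest, and SB273005 replicate 4 lay beside the lowest BAPN library. In bulk tissue, fewer smooth muscle cells and less RNA per cell cannot be told apart.

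Acta2, smooth muscle α-actin, was at 4206, 5533, 6417 and 4020 FPKM in BAPN and 2724, 548, 3091 and 3994 with SB273005. SB273005 replicate 4 lay just under the lowest BAPN library, and the log2 difference of −0.93 ± 0.43 did not pass (edgeR adjusted p = 0.304). Myh11, the smooth muscle myosin heavy chain, was at 406 to 615 and 70.2 to 412 FPKM (−0.85 ± 0.39), and Tagln, the actin-binding protein SM22α, at 1676 to 2535 and 370 to 1857 (−0.74 ± 0.37). Both overlapped (edgeR adjusted p = 0.304 and 0.329). The smallest p in the list was that of Synpo2, an actin-bundling Z-disc protein, at 29.9, 38.2, 38.6 and 34.8 FPKM in BAPN and 11.8, 4.83, 18.7 and 21.9 with SB273005 (−1.27 ± 0.35, edgeR adjusted p = 0.160). Ppp1r14a, which inhibits myosin phosphatase, was at 63.8 to 88.5 and 11.7 to 55.6 FPKM (−1.02 ± 0.34), Lmod1, an actin nucleator, at 111 to 154 and 28.6 to 99.2 (−0.80 ± 0.27), and Actg2, smooth muscle γ-actin, at 112 to 170 and 22.6 to 103 (−1.0 ± 0.36), each without overlap (edgeR adjusted p = 0.203, 0.208 and 0.220).

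The promoter of Myl9, the regulatory myosin light chain gene, shows the kind of element through which SRF acts. It is printed 5′ to 3′ as the 250 bases before the RefSeq start on GRCm38.p6 (chr2:156775214-156775463, plus strand), with the CArG match in capitals.
Myl9: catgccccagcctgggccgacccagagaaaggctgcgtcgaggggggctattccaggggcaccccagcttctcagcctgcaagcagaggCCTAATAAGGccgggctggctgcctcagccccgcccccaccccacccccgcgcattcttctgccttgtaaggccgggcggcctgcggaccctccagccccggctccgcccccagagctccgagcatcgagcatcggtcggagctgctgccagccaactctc
A CArG match on either strand was found in 4 of the 17 contractile genes that have such a window (23.5%; Cnn2, Ldb3, Myl6 and Myl9), against 1.45% of the tested genes with a window. Since the contractile list is made of genes known to be driven by SRF, this share describes the list and not an effect of SB273005. Myl9 itself was at 1833, 2479, 2635 and 2221 FPKM in BAPN and 1094, 353, 1557 and 1851 with SB273005. SB273005 replicate 4 lay just above the lowest BAPN library, and the log2 difference was −0.88 ± 0.36 (edgeR adjusted p = 0.261).

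Regulators of this program showed no common direction, with 10 of 19 above 0 and a median of 0.02. Srf was at 27.2 to 40.7 FPKM in BAPN and 18.3 to 30.0 with SB273005 (log2 −0.39 ± 0.16), and Prdm6, a smooth muscle repressor, at 13.6 to 16.7 and 10.9 to 13.3 (−0.23 ± 0.10), the latter without overlap (edgeR adjusted p = 0.260 and 0.286). Of the SRF cofactors, Mrtfb was at 2.74, 0.834, 1.11 and 1.07 FPKM in BAPN and 2.79, 4.26, 1.81 and 3.06 with SB273005 (1.12 ± 0.38, edgeR adjusted p = 0.206; 1.63 without BAPN replicate 1, edgeR adjusted p = 0.0536), and Mrtfa at 5.25 to 8.15 and 6.56 to 8.15 (0.29 ± 0.12, edgeR adjusted p = 0.265). Myocd, the myocardin gene, named after its values were seen, had a log2 difference of −0.21 ± 0.59 (edgeR adjusted p = 0.881). The groups of all 3 cofactors overlapped.

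Ion channels and calcium handling genes had a median of −0.47 over 18 tested, and 6 of them (33.3%) were lower without overlap. On scaled CPM 4 were lower and 1 was higher without overlap. The median was −0.37 without SB273005 replicate 2 and −0.21 in SB273005 replicate 4 alone. Camk2g, a calcium and calmodulin dependent kinase, was at 17.6, 22.6, 21.6 and 17.6 FPKM in BAPN and 13.2, 10.9, 16.1 and 12.6 with SB273005 (−0.55 ± 0.12, edgeR adjusted p = 0.113). Ano1, a calcium-gated chloride channel, was at 24.3 to 28.7 and 11.6 to 20.6 FPKM (−0.57 ± 0.14), and Kcnj8, the pore of the ATP-sensitive potassium channel, at 17.0 to 21.5 and 11.7 to 14.1 (−0.57 ± 0.15; edgeR adjusted p = 0.130 and 0.132). For these 3 genes SB273005 replicate 4 was also below each BAPN library, at −0.61, −0.40 and −0.71 on the log2 scale. Kcna5, a voltage-gated potassium channel, lay higher, at 0.976 to 1.64 and 1.42 to 4.25 FPKM with overlap (1.11 ± 0.31, edgeR adjusted p = 0.160).

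Among 17 vasoactive receptors and enzymes the median was −0.11. Npr3, the clearance receptor for natriuretic peptides, was at 1.82, 1.18, 1.60 and 1.64 FPKM in BAPN and 5.34, 2.15, 3.45 and 2.78 with SB273005, without overlap (log2 1.18 ± 0.25, edgeR adjusted p = 0.106). Adra1d, an α1-adrenergic receptor, was at 13.7 to 18.0 FPKM and 3.30 to 11.9 (−0.94 ± 0.30), and Prkg1, the cGMP-dependent kinase of relaxation, at 2.73 to 3.24 and 1.04 to 2.63 (−0.58 ± 0.22), both lower in each SB273005 library (edgeR adjusted p = 0.196 and 0.233). Ednra, the endothelin A receptor, was at 3.05 to 5.12 and 4.58 to 9.29 FPKM (0.75 ± 0.24, edgeR adjusted p = 0.192) and overlapped.

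Fibrillar collagen genes were above 0 in 11 of 11 tested, with a median of 0.60, and 0 had groups that did not overlap. The list level relative to the BAPN mean was 1.03 log2 units in BAPN replicate 1 and −0.43 to −0.23 in the other BAPN libraries, against 1.86, 1.18, 0.29 and 0.78 in SB273005 replicates 1 to 4. Each SB273005 library was above BAPN replicates 2 to 4, and BAPN replicate 1 lay within the SB273005 range. Without BAPN replicate 1 the median was 0.98, 6 of the 11 were higher without overlap and Col11a1 passed (log2 4.57, edgeR adjusted p = 0.0335). Col11a1 and Col2a1 reached 1 FPKM in BAPN only in BAPN replicate 1, so without it they met the filter only through SB273005 libraries. The shares of this list and the pass of Col11a1 are therefore not read as results. Col1a1 was at 1024, 420, 466 and 536 FPKM in BAPN and 1136, 1093, 522 and 879 with SB273005 (log2 0.64 ± 0.34), and Col3a1 at 422 to 978 and 451 to 1110 (0.60 ± 0.32; edgeR adjusted p = 0.358 and 0.371). Col16a1, a fibril-associated collagen, was at 9.33 to 24.0 and 18.1 to 34.1 FPKM (0.97 ± 0.31), Col12a1 at 1.37 to 4.91 and 2.92 to 16.9 (1.61 ± 0.65), and Col2a1, the cartilage collagen, at 0.252 to 1.32 and 1.24 to 26.1 (3.76 ± 1.33), with SB273005 replicate 1 highest for each (edgeR adjusted p = 0.192, 0.257 and 0.217).

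Collagen VIII is a short-chain collagen of vessel walls. Col8a1 was at 34.2, 5.31, 6.86 and 3.64 FPKM in BAPN and 93.6, 43.6, 23.5 and 36.6 with SB273005, and Col8a2 at 8.94, 1.78, 1.28 and 1.51 and 24.8, 11.6, 5.10 and 6.99. BAPN replicate 1 overlapped the SB273005 libraries, which lay above the other 3 BAPN libraries. The log2 differences were 2.05 ± 0.67 and 1.91 ± 0.64 (edgeR adjusted p = 0.199 and 0.203), and 3.27 and 3.04 without BAPN replicate 1, where both passed (edgeR adjusted p = 0.0323 and 0.0361). That library was picked for its high matrix genes, so leaving it out had to widen these differences, and the passes are not support. The nidogens, which link laminin to collagen IV, were at 3.61 to 4.67 and 4.97 to 13.6 FPKM for Nid2 (0.91 ± 0.32, no overlap) and 24.7 to 45.7 and 34.2 to 63.2 for Nid1 (0.57 ± 0.23; edgeR adjusted p = 0.212 and 0.253). The median of the 23 network and basement membrane genes was −0.08.

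The lysyl oxidases, which BAPN inhibits, had a median of 0.21 over 5 genes. Lox was at 258, 115, 105 and 93.0 FPKM in BAPN and 268, 198, 103 and 211 with SB273005, with SB273005 replicate 3 among the lower BAPN libraries (log2 0.52 ± 0.34, edgeR adjusted p = 0.453). Loxl3 was at 23.1 to 33.4 and 31.2 to 46.5 FPKM (0.52 ± 0.14), Loxl2 at 17.3 to 23.8 and 12.4 to 18.2 (−0.32 ± 0.16) and Loxl4 at 2.07 to 3.14 and 1.63 to 2.77 (−0.26 ± 0.19), each with overlap (edgeR adjusted p = 0.149, 0.345 and 0.514). Their substrate elastin, Eln, was at 3037, 1342, 1373 and 1237 FPKM in BAPN and 3981, 2743, 1590 and 3040 with SB273005. As for collagens, BAPN replicate 1 lay within the SB273005 range and the other 3 below it (log2 0.76 ± 0.35, edgeR adjusted p = 0.301; 1.16 without BAPN replicate 1, edgeR adjusted p = 0.105). Of the other elastic fibre genes, Fbln2 (0.53 ± 0.25), Fbln5 (0.47 ± 0.22) and Mfap2 (0.98 ± 0.48) overlapped, the last at 108 FPKM in SB273005 replicate 2 and 18.3 to 27.6 in the rest of the group, and the median of the 12 was 0.08.

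TGF-β pathway genes had a median of 0.13 over 23 tested. Acvrl1, the endothelial TGF-β and BMP receptor ALK1, was at 22.8, 22.0, 20.9 and 23.8 FPKM in BAPN and 26.2, 26.9, 32.1 and 28.7 with SB273005. The groups did not overlap, and the log2 difference was 0.40 ± 0.09 with all libraries and 0.41 in SB273005 replicate 4 alone (edgeR adjusted p = 0.106 with all libraries). Its co-receptor gene Eng was at 42.0 to 46.2 and 42.5 to 60.5 FPKM (0.31 ± 0.11), and Ltbp2, a latent TGF-β binding protein, at 44.1 to 119 and 110 to 232 (1.07 ± 0.31; edgeR adjusted p = 0.209 and 0.169). The ligand genes overlapped: Tgfb1 was at 11.7 to 14.8 and 12.9 to 20.9 FPKM (0.33 ± 0.19) and Tgfb2 at 12.4 to 15.3 and 6.07 to 21.0 (0.03 ± 0.27; edgeR adjusted p = 0.391 and 0.961). The sign of the small Tgfb2 difference turned under several scalings, FPKM among them. Tgfb1i1, an adhesion adaptor also called Hic-5, was at 53.1 to 76.6 and 26.3 to 55.4 FPKM (−0.49 ± 0.20, edgeR adjusted p = 0.255).

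Of 29 matrix proteases and inhibitors, 24 were above 0, with a median of 0.21 (0.35 without BAPN replicate 1), and 0 parted the groups. Mmp2, gelatinase A, was at 240, 99.1, 98.3 and 98.7 FPKM in BAPN and 277, 380, 148 and 216 with SB273005 (log2 1.00 ± 0.34, edgeR adjusted p = 0.208). BAPN replicate 1 was the one BAPN library within the SB273005 range, and without it the difference was 1.43 (edgeR adjusted p = 0.0587). Cathepsin K, Ctsk, was at 29.5 to 75.5 and 40.1 to 111 FPKM (0.88 ± 0.33), Mmp11 at 4.27 to 6.58 and 6.08 to 14.1 (0.74 ± 0.28), and the cathepsin inhibitor cystatin C, Cst3, at 735 to 961 and 815 to 1141 (0.42 ± 0.15; edgeR adjusted p = 0.230, 0.229 and 0.217). Mmp9 was under the filter.

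The 15 proteoglycan and hyaluronan genes had a median of 0.21. Podn, podocan, was at 11.5 to 15.4 FPKM in BAPN and 16.7 to 24.6 with SB273005, without overlap (0.59 ± 0.20), and Fmod, fibromodulin, at 64.8 to 158 and 123 to 279 (1.01 ± 0.33; edgeR adjusted p = 0.206 and 0.198). Lum, lumican, was at 122 to 355 and 187 to 558 FPKM and Prelp at 245 to 386 and 325 to 351 (0.89 ± 0.39 and 0.28 ± 0.16, edgeR adjusted p = 0.284 and 0.382). Among chondrogenic and osteogenic genes the median was 0.65 over 12. Mgp, the matrix Gla protein that inhibits calcification, was at 2155, 1422, 1692 and 1099 FPKM in BAPN and 3300, 2490, 2151 and 2769 with SB273005, the lowest SB273005 library standing just under the highest BAPN one (0.81 ± 0.23, edgeR adjusted p = 0.169). Cytl1, a secreted cartilage factor, lay lower in each SB273005 library, at 103 to 171 and 52.7 to 103 FPKM (−0.97 ± 0.24, edgeR adjusted p = 0.126), Alpl, alkaline phosphatase, was at 4.86 to 21.6 and 1.72 to 5.10 (−1.47 ± 0.43) and Bmp2 at 1.79 to 2.57 and 1.20 to 5.67 (0.98 ± 0.36; edgeR adjusted p = 0.179 and 0.221).

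YAP target genes report on cytoskeletal tension in many cells. The list used here also holds pathway members, Yap1, Wwtr1 and Lats2 among them, so it does not measure target genes alone. Its median was 0.15 over 11. F3, tissue factor, was at 25.0, 37.1, 37.0 and 36.4 FPKM in BAPN and 20.2, 11.7, 23.7 and 20.3 with SB273005. Each SB273005 library was lower, and BAPN replicate 1 was the lowest of its group (log2 −0.80 ± 0.19, edgeR adjusted p = 0.117; −0.92 without BAPN replicate 1, where it passed at 0.0465). Ptpn14 (0.34 ± 0.08), Ajuba (0.40 ± 0.16) and Amotl2 (0.59 ± 0.25) lay on the other side with overlap (edgeR adjusted p = 0.123, 0.254 and 0.270). Tead1, a DNA-binding partner of YAP, was at 4.20 to 5.25 FPKM in BAPN, 6.02, 3.51 and 5.89 in SB273005 replicates 1 to 3 and 0.375 in replicate 4, where alone it was 3.57 log2 units lower than BAPN.

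The unfolded protein response restores folding in the endoplasmic reticulum through factors such as ATF6, which act at ERSE elements, and the ATF4 arm induces amino acid and stress genes. Of the 20 genes of this list 18 were above 0, with a median of 0.37, or 0.63 without SB273005 replicate 2, 0.11 without SB273005 replicate 4 and 0.67 in replicate 4 alone. The list level relative to the BAPN mean was −0.18 to 0.18 in BAPN and 0.54, −0.38, 0.23 and 0.78 in SB273005 replicates 1 to 4, so the mean of the list was highest in replicate 4. Sesn2, a stress-induced inhibitor of mTORC1 signalling, was at 2.61, 2.93, 2.89 and 3.69 FPKM in BAPN and 5.47, 5.85, 4.61 and 4.43 with SB273005, and Trib3, a pseudokinase induced by ATF4 and CHOP, at 1.96, 1.99, 1.62 and 1.79 and 3.88, 2.89, 2.75 and 2.77. Both were higher in each SB273005 library (log2 0.81 ± 0.19 and 0.79 ± 0.21, edgeR adjusted p = 0.117 and 0.142). Ddit3, CHOP, was at 12.2 to 17.7 and 16.2 to 27.2 FPKM (0.60 ± 0.17), and Phgdh, the first enzyme of serine synthesis, at 5.13 to 8.13 and 6.81 to 13.1 (0.62 ± 0.24; edgeR adjusted p = 0.157 and 0.239).

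The windows before the starts of the chaperone genes Hspa5 (BiP; chr2:34771840-34772089, plus strand), Hsp90b1 (GRP94; chr10:86705445-86705694, minus strand) and the mitochondrial chaperonin gene Hspe1 (chr1:55087898-55088147, plus strand) are printed 5′ to 3′ from RefSeq on GRCm38.p6 because they carry the elements of these responses. Capitals mark ERSE matches (CCAAT, then 9 bases of any kind, then CCACG) in Hspa5 and Hsp90b1 and overlapping heat shock element matches (TTC, GAA and TTC, each parted by a pair of any bases) in Hspe1, on either strand.
Hspa5: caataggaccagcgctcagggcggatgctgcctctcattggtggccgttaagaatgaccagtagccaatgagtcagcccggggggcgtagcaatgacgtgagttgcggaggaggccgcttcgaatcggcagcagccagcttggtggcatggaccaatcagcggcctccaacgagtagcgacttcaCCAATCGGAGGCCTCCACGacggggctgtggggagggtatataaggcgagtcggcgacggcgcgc
Hsp90b1: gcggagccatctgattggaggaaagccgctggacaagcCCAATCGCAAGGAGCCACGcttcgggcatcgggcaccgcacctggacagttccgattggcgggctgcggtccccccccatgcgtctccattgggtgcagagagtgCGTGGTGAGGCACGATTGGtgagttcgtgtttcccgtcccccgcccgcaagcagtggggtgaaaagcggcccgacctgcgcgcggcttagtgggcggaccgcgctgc
Hspe1: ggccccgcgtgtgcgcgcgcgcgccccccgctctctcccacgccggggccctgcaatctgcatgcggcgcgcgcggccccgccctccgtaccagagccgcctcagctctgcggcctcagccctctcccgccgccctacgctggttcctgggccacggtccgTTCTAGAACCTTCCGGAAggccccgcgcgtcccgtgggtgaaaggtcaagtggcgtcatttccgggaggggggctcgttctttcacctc
The ERSE letters were found in 6 of the 19 genes of the list that have a window (31.6%; Calr, Creld2, Dnajc3, Hsp90b1, Hspa5 and Pdia6), against 0.172% of tested genes, with 2 matches in Hsp90b1. The heat shock element letters were in 2 of 10 heat shock genes (Hspd1 and Hspe1, whose windows overlap) against 0.484%. Both lists are made of known genes of these responses, so the shares describe the lists and not an effect of SB273005. Hspa5 was at 131, 96.3, 91.5 and 76.0 FPKM in BAPN and 154, 36.4, 117 and 219 with SB273005, and Hsp90b1 at 136, 95.1, 99.1 and 97.4 and 134, 66.0, 104 and 142. For both, SB273005 replicate 2 was the lowest and SB273005 replicate 4 the highest of the 8 libraries (log2 0.46 ± 0.38 and 0.11 ± 0.20, edgeR adjusted p = 0.553 and 0.806). The sign for Hsp90b1 turned on FPKM rescaled to a common total.

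Heat shock genes stood out in SB273005 replicates 3 and 4. The list level was −0.07 to 0.07 in BAPN and −0.23, −0.88, 0.47 and 1.66 in SB273005 replicates 1 to 4, and the median of the 14 genes was 0.47 with all libraries, 0.02 without SB273005 replicate 4 and 1.39 in it alone. Hspa1b, an inducible HSP70, was at 29.6, 49.5, 35.8 and 100 FPKM in BAPN and 22.1, 19.2, 165 and 613 with SB273005 (log2 1.98 ± 0.86, edgeR adjusted p = 0.283). Its near-identical paralog Hspa1a makes the split of reads uncertain. Hsph1, HSP110, was at 12.2 to 18.3 FPKM in BAPN and 14.2, 5.58, 30.4 and 90.0 with SB273005, and Dnaja1, an HSP40 co-chaperone, at 9.97 to 13.3 and 13.3, 9.09, 20.7 and 44.2 (1.24 ± 0.58 and 0.94 ± 0.35, edgeR adjusted p = 0.309 and 0.228). Replicate 2 was the lowest and replicate 4 the highest in each. Dnajb1 was at 11.9 to 16.2 and 11.9 to 34.7 FPKM (0.59 ± 0.26, edgeR adjusted p = 0.286).

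Some genes stood apart from BAPN in SB273005 replicate 4, a single library, so their values describe that library only. The higher ones included the chaperone genes Dnaja1, Dnaja4 and Hspe1, beside Slc5a3, predicted gene models and Cars, a cysteinyl tRNA synthetase. They also included the HSP90 co-chaperones Chordc1 (13.7 FPKM against 4.46 to 5.50 in BAPN) and Cacybp (51.8 against 14.6 to 18.8). The lower genes included Tead1, Rdh13 and Zscan2. All of these except Slc5a3 and Dnaja1 were chosen after their values were seen. Hspe1 was at 22.6 to 31.3 FPKM in BAPN, 20.9 to 24.8 in SB273005 replicates 1 to 3 and 47.1 in replicate 4. Cars was the one of them, beside Slc5a3, whose groups did not overlap with all 4 libraries, at 3.22 to 4.01 and 4.34 to 6.98 FPKM (log2 0.57 ± 0.13, edgeR adjusted p = 0.117).

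Interferon response genes were above 0 in 18 of 18 tested, with a median of 0.69 that was 0.29 without SB273005 replicate 1, and 1 was higher without overlap (5.56%). The list level was 0.35, −0.17, −0.07 and −0.11 in BAPN replicates 1 to 4 and 1.42, 0.64, 0.34 and −0.06 in SB273005 replicates 1 to 4. SB273005 replicate 1 was highest and SB273005 replicate 4, with a median of −0.03 alone, lay among the BAPN libraries. Bst2, tetherin, was at 45.8, 29.0, 28.3 and 39.0 FPKM in BAPN and 80.9, 47.7, 52.7 and 45.8 with SB273005 (log2 0.73 ± 0.19, edgeR adjusted p = 0.142), and Irf7, the inducer of type I interferons, at 2.00 to 4.28 and 3.24 to 12.8 (1.29 ± 0.37, edgeR adjusted p = 0.169). Gbp3, an interferon-induced GTPase, was at 2.13 to 3.22 and 2.84 to 5.79 FPKM (0.73 ± 0.21) and Irf9 at 3.67 to 5.56 and 4.83 to 7.16 (0.42 ± 0.15; edgeR adjusted p = 0.174 and 0.217).

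Macrophage and monocyte markers had a median of 0.70 over 22 genes, 19 of them above 0, with 1 lower and 0 higher without overlap. The median was 0.54 without SB273005 replicate 2 and 0.17 in SB273005 replicate 4 alone. The summed FPKM of the list was 405 to 941 in BAPN and 633 to 1334 with SB273005. SB273005 replicate 4, at 737, lay within the BAPN range. Cd14, the lipopolysaccharide co-receptor, was at 12.9, 6.58, 7.94 and 9.54 FPKM in BAPN and 24.3, 18.4, 12.3 and 14.5 with SB273005, overlapping narrowly (0.97 ± 0.26, edgeR adjusted p = 0.153). C1qb, a C1q chain, was at 55.8 to 130 and 103 to 192 FPKM (0.76 ± 0.29), and Csf1r, the macrophage growth factor receptor, at 9.37 to 23.6 and 19.1 to 35.2 (0.68 ± 0.28; edgeR adjusted p = 0.243 and 0.259). Cd163, the haemoglobin scavenger receptor of resident macrophages, went against the list, at 4.30 to 10.7 FPKM in BAPN and 1.06 to 4.64 with SB273005 (−1.29 ± 0.39, edgeR adjusted p = 0.184).

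The 23 cytokine and chemokine genes were evenly split, with 12 above 0. Ccl11, the eosinophil chemokine eotaxin, was at 4.05, 12, 8.58 and 12.6 FPKM in BAPN and 3.97, 2.22, 2.91 and 5.32 with SB273005 (log2 −1.32 ± 0.36, edgeR adjusted p = 0.155). BAPN replicate 1 lay within the SB273005 range, and without it the difference was −1.57 and passed (edgeR adjusted p = 0.0465). Ccl6 was at 15.1 to 39.4 and 8.86 to 21.5 FPKM (−0.80 ± 0.30), while the membrane-bound chemokines Cx3cl1, at 8.37 to 16.7 and 13.5 to 34.3 (0.97 ± 0.31), and Cxcl16, at 5.68 to 14.5 and 10.1 to 23.6 (1.01 ± 0.35), leaned higher (edgeR adjusted p = 0.226, 0.192 and 0.215).

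Notch pathway genes were above 0 in 14 of 16, with a median of 0.74, and 1 was higher without overlap (6.25%). On scaled CPM 3 of the 16 were higher without overlap, against 3.07% of all genes. Notch receptors are activated by Delta and Jagged ligands on the neighbouring cell, and in arteries they act in both endothelium and smooth muscle. Dll4, the arterial endothelial ligand, was at 1.51, 0.974, 0.588 and 1.49 FPKM in BAPN and 3.16, 5.70, 5.52 and 1.46 with SB273005 (1.86 ± 0.50, edgeR adjusted p = 0.155). In FPKM SB273005 replicates 1 to 3 were above every BAPN library and replicate 4 was within the BAPN range. On scaled CPM the groups of Dll4 did not overlap. Jag1 was at 5.86 to 10.4 and 8.67 to 18.9 FPKM (0.87 ± 0.27), Jag2 at 1.20 to 1.66 and 1.63 to 3.61 (0.90 ± 0.25) and Lfng, the fringe enzyme that modifies Notch, at 3.85 to 4.90 and 4.91 to 12.2 (0.97 ± 0.27; edgeR adjusted p = 0.184, 0.157 and 0.168). SB273005 replicate 4 was the lowest of its group for all 4 genes, and the list median there was 0.18.

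Some endothelial markers were higher in the same libraries, and their part in the Notch values was not tested. Of the 14 markers 10 were above 0 and 4 below (Pecam1 −0.21, Tek −0.15, Nos3 −0.11 and Vwf −0.01 on the log2 scale, named after their values were seen), with a median of 0.51, or 0.19 without SB273005 replicate 2 and −0.09 in replicate 4 alone, and their summed FPKM was 104 to 175 in BAPN and 165, 234, 155 and 115 in SB273005 replicates 1 to 4. Cdh5, VE-cadherin, was at 10.7, 9.44, 5.93 and 13.8 FPKM in BAPN and 23.4, 31.2, 21.6 and 9.94 with SB273005 (log2 1.18 ± 0.41, edgeR adjusted p = 0.212). Kdr, the main VEGF receptor, was at 0.825 to 3.31 and 2.18 to 6.39 FPKM (1.22 ± 0.43), Tie1 at 5.88 to 11.7 and 8.68 to 19 (0.70 ± 0.30) and Sox17, an arterial transcription factor, at 1.42 to 2.98 and 1.82 to 5.86 (0.85 ± 0.40; edgeR adjusted p = 0.217, 0.265 and 0.309). Each had SB273005 replicate 4 lowest in its group.

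Cardiomyocyte genes, which the aortic root and its surroundings can bring, were tested for 10 of 14 markers. Since the filter admitted Myh7 only through libraries where it was high, no share of the list is read. Beside Myh7, Myh6, the other cardiac myosin heavy chain, was at 0.736, 1.99, 2.22 and 4.34 FPKM in BAPN and 32.2, 24.2, 47.0 and 7.41 with SB273005 (log2 3.62 ± 0.68, edgeR adjusted p = 0.0796). PBS libraries were at 21.4 to 26.0 FPKM, with SB273005 replicates 1 and 3 above that range and replicate 2 within it. SB273005 replicate 4 was below every PBS library and above every BAPN library. Tnnc1 and Tnni3, cardiac troponins C and I, were at 0.622 to 2.08 and 2.56 to 12 FPKM and at 0.750 to 2.93 and 3.43 to 14.9 (2.64 ± 0.51 and 2.52 ± 0.54, edgeR adjusted p = 0.0850 and 0.106). The summed FPKM of all 14 markers was 20.5 to 76.3 in BAPN, 75.0 to 182 with SB273005 and 52.2 to 295 in PBS.

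Brown adipocyte genes were below 0 in 7 of 7 tested, with a median of −0.95 and 2 lower without overlap (28.6%). White adipocyte genes lay the other way, with 8 of 10 above 0 and a median of 0.54. In SB273005 replicate 4 alone the medians were −0.91 for brown and −0.27 for white adipocyte genes. The 2 lists thus did not share a direction, and the amount of perivascular fat was not tested. Prdm16, a driver of the brown fat program, was at 8.62, 6.54, 7.31 and 7.29 FPKM in BAPN and 5.05, 2.19, 4.17 and 2.69 with SB273005 (log2 −1.03 ± 0.22, edgeR adjusted p = 0.106), and Dio2, a thyroid hormone activating deiodinase, at 13.7 to 21.8 and 5.50 to 10.5 (−1.19 ± 0.29, edgeR adjusted p = 0.126). Both parted the groups and are the 2 counted above, while Ucp1 and Cidea overlapped. Ucp1, uncoupling protein 1, was at 39.7, 26.0, 54.6 and 196 FPKM in BAPN and 51.9, 3.35, 22.7 and 20.5 with SB273005, and Cidea at 32.1 to 116 and 9.17 to 58.5 (−1.64 ± 0.89 and −0.73 ± 0.55, edgeR adjusted p = 0.367 and 0.523). BAPN replicate 4 held the most Ucp1 and Cidea, but not the most Prdm16 or Dio2 of its group. Without that library the list median was −0.51.

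Of the other cell type lists, no member passed in edgeR, and several ranged widely within a group. Skeletal muscle genes had a median of −1.61 over 10, with summed FPKM of 185 to 1734 in BAPN and 76.5 to 348 with SB273005, and erythroid genes one of −1.47 over 5, with 514 to 6131 and 128 to 1994; without BAPN replicate 3 these medians were −0.46 and −0.50. No T and NK cell marker passed the filter, and 4 of 11 neutrophil markers did, S100a8 only through SB273005 libraries, with summed FPKM of 4.33 to 5.33 in BAPN and 5.40 to 13.5 with SB273005. The adventitial fibroblast median was −0.08 over 15 and that of liver genes −0.76 over 10, the latter 0.03 without BAPN replicate 3.

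The 13 mitochondrially encoded genes had a median of 0.67, which was 0.13 without SB273005 replicate 2 and −0.27 in SB273005 replicate 4 alone. Nuclear oxidative phosphorylation genes lay the other way, 25 of 25 below 0 with a median of −0.22 and 3 lower without overlap (12%). Hypoxia and glycolysis genes were below 0 in 17 of 20, with a median of −0.23 and 3 lower without overlap (15%). Egln3, an oxygen-sensing prolyl hydroxylase, was at 2.69, 3.42, 4.49 and 4.98 FPKM in BAPN and 2.43, 2.19, 2.44 and 2.39 with SB273005, each lower (log2 −0.67 ± 0.21, edgeR adjusted p = 0.192). Hk2, hexokinase 2, was at 6.15 to 11 and 2.75 to 7.31 FPKM (−0.66 ± 0.26), Pgam1, a glycolytic mutase, at 72.2 to 84.1 and 40.9 to 70.1 (−0.32 ± 0.13) and Slc2a1, the glucose transporter GLUT1, at 12.2 to 18.1 and 6.67 to 15 (−0.40 ± 0.20; edgeR adjusted p = 0.245, 0.253 and 0.334).

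**Figure D4:**
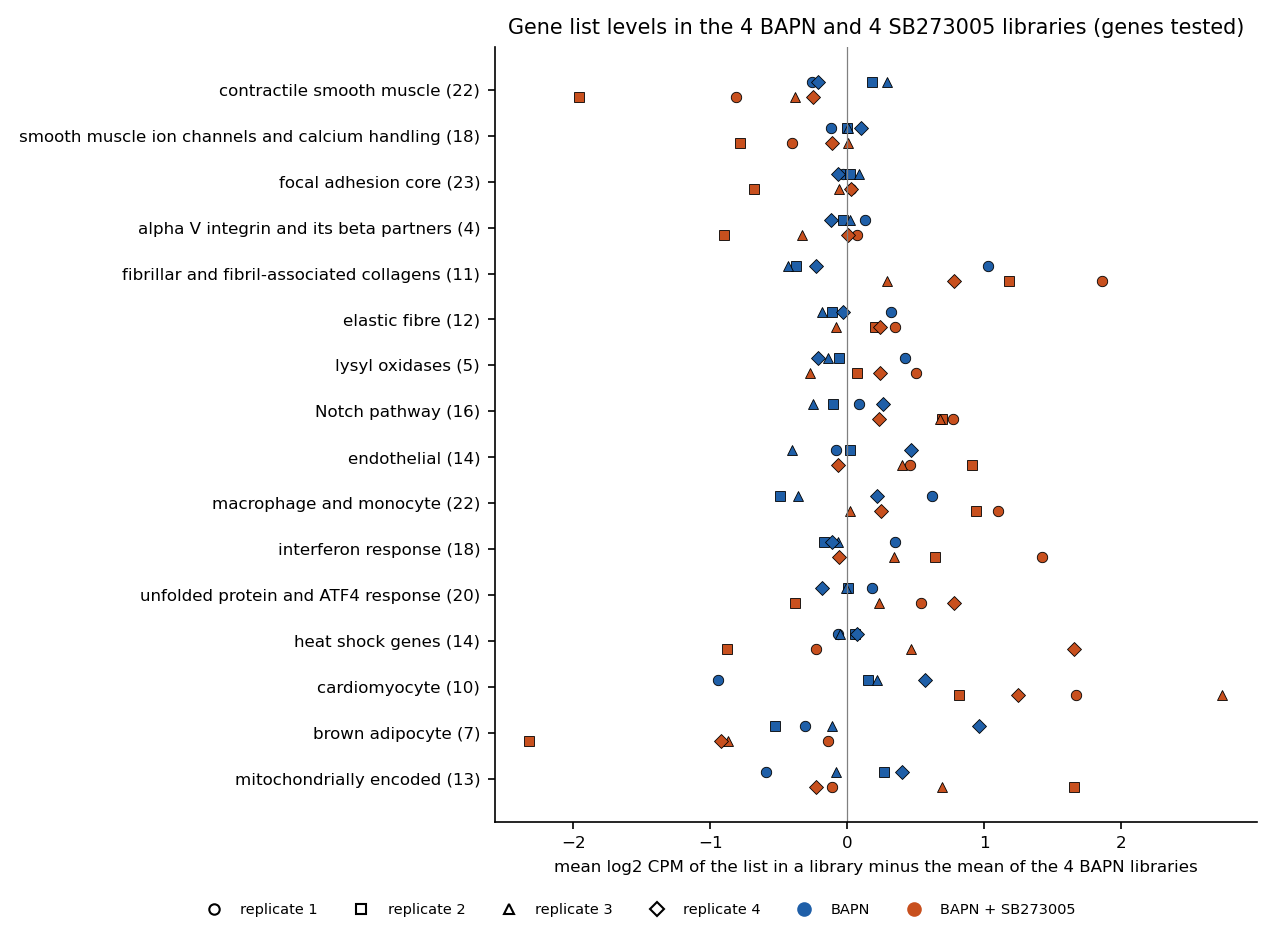
Mean log2 CPM of each gene list in each BAPN (upper, blue) and SB273005 (lower, orange) library, minus the mean of the 4 BAPN libraries, with the number of genes tested in brackets and the marker giving the replicate. SB273005 replicate 2 is far to the left for contractile genes (−1.96), SB273005 replicate 4 is to the right for heat shock genes (1.66), and BAPN replicate 1 lies among the SB273005 libraries for fibrillar collagens (1.03).

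The lists differed in how far they rested on single libraries. With 1 of the 8 libraries left out, the fibrillar collagen median ran from 0.48 without BAPN replicate 2 to 0.98 without BAPN replicate 1. It was 0.58 in SB273005 replicate 4 alone. Medians of other lists, the endothelial, interferon and mitochondrially encoded ones among them, changed sign in SB273005 replicate 4 alone. The contractile median was below 0 with any 1 library left out, from −1.01 without SB273005 replicate 4 to −0.51 without SB273005 replicate 2. With 1 library left out, several smaller medians moved by more than 1.5 times. Without SB273005 replicate 1 they were 0.03 for the TGF-β pathway, 0.06 for lysyl oxidases, −0.02 for elastic fibre genes, −0.16 for network and basement membrane genes, 0.13 for proteases, −0.35 for nuclear oxidative phosphorylation and 0.01 for fibroblasts. Without SB273005 replicate 2 they were 0.03 for proteoglycans, 0.40 for chondrogenic genes and 0.30 for the YAP list. In the same setting they were 0.10 for smooth muscle regulators and 0.09 for network and basement membrane genes. The focal adhesion median was −0.44 without SB273005 replicate 4 and the vasoactive one −0.06 without BAPN replicate 2.

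**Figure D5:**
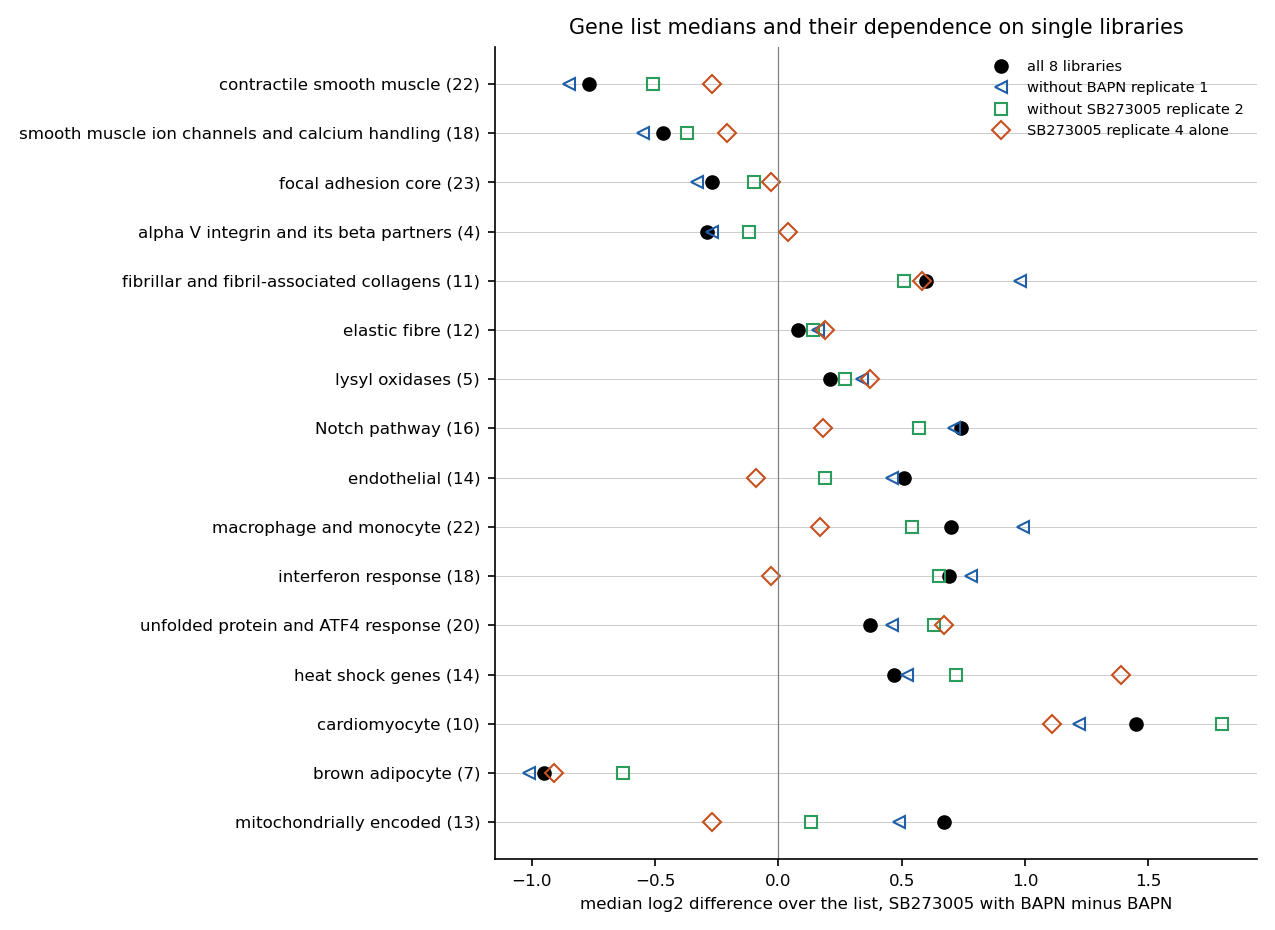
Median log2 difference of each gene list (SB273005 with BAPN minus BAPN; number of genes tested in brackets) with all 8 libraries (filled circles), without BAPN replicate 1 (triangles), without SB273005 replicate 2 (squares) and for SB273005 replicate 4 alone (diamonds). In these 4 settings contractile medians run from −0.85 to −0.27 and interferon medians from −0.03 to 0.78.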

How the data were processed

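Bulk RNA of ascending aorta was measured in 14 libraries. Per the submitters' processing notes, reads were aligned to mm10 with HISAT2 2.2.1 and genes quantified with StringTie 2.1.6; which annotation was used, and whether counting used strand, is not given in the sources used here. The deposited gene table holds estimated counts, whole as deposited, and FPKM, both made by the authors. The tests used the counts, and levels are FPKM.

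Genes that reached 1 FPKM in 3 or more of the 8 libraries compared were tested with edgeR 4.0.16 (R 4.3.3): TMM scaling, 1 quasi-likelihood fit with 4 group means on all 14 libraries, Benjamini-Hochberg adjustment over 12824 genes, threshold 0.05. Tested genes held 98.62% to 99.13% of the counts of each library. On simulated data of 12824 genes with 200 changed, the fit called 19.4% of 1.5-fold, 58.2% of 2-fold and 86.4% of 4-fold changes. It also called 2 genes that were not changed. The simulation held no library sets and no outlying libraries, so these shares need not hold for the real libraries. Replicates of a group differed beyond counting noise.

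Alternatives used DESeq2 1.42.0, limma 3.58.1 on log2(FPKM + 1), other filters and libraries left out. List levels are mean log2 CPM with a prior count of 2. Named genes were fixed integrin, matrix and contractile genes, the genes that passed, and for each list up to 4 members of smallest p; Tead1, Cacybp, Chordc1, Hspe1, Cars, Hspa5, Hsp90b1 and Myl9 were chosen after their values were seen. The genes compared and the lists were chosen with earlier results of these data known. Promoter windows are RefSeq on GRCm38.p6, the assembly of mm10, and motifs were searched on both strands. The transcript table was not used.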

Additional observations from a re-analysis of the deposited data

Results flagged for a closer look

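In 40 of the 278 groups of 4 values examined (14.4%), those of BAPN and of SB273005 for the 139 named genes, 1 library stood farther from the rest than Dixon's 95% limit, where chance flags about 1 in 20 groups. Most were BAPN replicate 1, which was high in matrix and related genes. In FPKM it held 10.8 of Itgav (the other BAPN libraries 9.58 to 9.73), 258 of Lox (93.0 to 115), 3037 of Eln (1237 to 1373), 121 of Spp1 (38.3 to 41.3), 240 of Mmp2 (98.3 to 99.1) and 978 of Col3a1 (422 to 444). It also held 1.32 of Col2a1 (0.252 to 0.434), 4.91 of Col12a1 (1.37 to 1.73), 2.33 of Col11a1 (0.101 to 0.110), 34.2 of Col8a1 (3.64 to 6.86) and 8.94 of Col8a2 (1.28 to 1.78). Further values were 158 of Fmod (64.8 to 74.1), 355 of Lum (122 to 149), 75.5 of Ctsk (29.5 to 33.4), 8.21 of Itga11 (1.80 to 2.52), 5.14 of Ptk2b (2.45 to 2.87) and 2.74 of Mrtfb (0.834 to 1.11). Outside the matrix they were 2.46 of Slc5a3 (1.82 to 1.86), 16.7 of Cx3cl1 (8.37 to 9.77), 14.5 of Cxcl16 (5.68 to 6.91) and 136 of Hsp90b1 (95.1 to 99.1), and F3 was low at 25.0 (36.4 to 37.1).

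BAPN replicate 4 stood above the other BAPN libraries at 6.97 FPKM of Depp1 (2.62 to 2.81), 8.15 of Mrtfa (5.25 to 5.70), 196 of Ucp1 (26.0 to 54.6) and 116 of Cidea (32.1 to 42.5).

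SB273005 replicate 1 stood above its group at 228 FPKM of Thbs1 (41.2 to 70.1), 20.7 of Itga11 (8.67 to 10.6), 232 of Ltbp2 (110 to 128), 26.1 of Col2a1 (1.24 to 2.40), 16.9 of Col12a1 (2.92 to 4.19), 13.6 of Nid2 (4.97 to 5.77) and 3.88 of Trib3 (2.75 to 2.89). SB273005 replicate 2 was low at 29.3 of Vasp (48.5 to 50.6), 11.6 of Ano1 (19.1 to 20.6) and 815 of Cst3 (1132 to 1141), and high at 108 of Mfap2 (18.3 to 27.6) and 14.1 of Mmp11 (6.08 to 7.37). SB273005 replicate 4 was low at 3.40 of Smim5 (5.13 to 5.27) and high at 47.1 of Hspe1 (20.9 to 24.8).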

How the results depend on the processing

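The count of 13 genes was the same with RLE size factors and with edgeR's robust option, and was 15 with limma on log2(FPKM + 1), 11 of them shared. It was 407 with DESeq2, 3 with limma on log2(TPM + 1) (1792 unadjusted), 1 on quantile-normalised values, 0 in edgeR with no FPKM filter (30255 genes, 2964 at an unadjusted p under 0.05) and 0 with only the 8 libraries compared (1575 unadjusted). Leaving out 1 library gave 0 to 118 genes; the counts of 0, in edgeR without BAPN replicate 2, BAPN replicate 3 or PBS replicate 1, had 1539, 1276 and 2051 genes at an unadjusted p under 0.05.

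Replicate numbers did not pair the samples: deviations of same-numbered libraries correlated at 0.30, 0.06, 0.17 and −0.14, and not every library matched its own number best. A replicate block gave 0 genes on the 8 libraries (1568 unadjusted) and 41 on all 14, 10 of them shared.

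Of 3880 values of the 139 named genes, 23 in 9 genes reversed; the cause was not tested. In a fit with a library set term, equal to SB273005 replicate 4 alone, log2 differences were 0.07 for Itgav, 0.00 for Itgb1, −0.75 for Itga6, 0.02 for Slc2a1 and −0.08 for Sox17. Tgfb2 was −0.12 and −0.13 with limma on log2(FPKM + 1) and log2(FPKM + 0.1), −0.23 on TPM, −0.08 on quantile-normalised values, −0.08 and −0.07 with the replicate block, −0.02 without BAPN replicate 4 and −0.24 without SB273005 replicate 4. With 1 library left out in turn, Tgfb2 ran from −0.24 to 0.27, Tead1 from −0.47 to 0.19, Hspe1 from −0.12 to 0.33 and Hsp90b1 from −0.03 to 0.28, and on TPM Hspe1 was −0.02 and Hsp90b1 −0.09. The 13 genes reversed in none of 362 values, and 225 of these no longer passed.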
